A study of Rattus norvegicus with 6 samples.

Results

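The respiratory chain and ATP synthase of the rat liver were examined through 82 genes, out of 15645 genes that could be named on the array. They were chosen by symbol alone: names beginning with Ndufa, Ndufb, Ndufc, Ndufs or Ndufv for complex I, Sdha to Sdhd for complex II, Uqcr or Cyc1 for complex III, Cox4i, Cox5, Cox6, Cox7 or Cox8 for complex IV, and Atp5f1, Atp5m or Atp5p for complex V. This gave 38 genes of complex I, 4 of complex II, 8 of complex III, 17 of complex IV and 15 of complex V, measured by 146 probes. The prefixes also take 6 complex I assembly factors (Ndufaf1, Ndufaf3, Ndufaf4, Ndufaf5, Ndufaf7 and Ndufaf8), which are not part of the finished enzyme, and the gene copies Ndufa10l1 and Cox6c-ps1. The testis isoform Cox8c was well above background on 1 array only and was not tested, which left 81. Cyc1 and the subunits encoded by mitochondrial DNA were not analysed here.

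Liver RNA came from 6 male Sprague-Dawley (Crl:CD(SD)) rats, 5 weeks old when bought, with 1 one-colour array per animal. The 3 TBBC rats had been given TBBC, the 4,4'-thiobis compound of 6-tert-Butyl-m-Cresol and a phenolic antioxidant, at 300 mg/kg/day, and the 3 vehicle rats had been given corn oil. The labels disagree on how long: the series text speaks of 28 days and the treatment protocol of 9 weeks. The comparison asks which genes differ in the liver under the chemical.

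Oxidative phosphorylation takes place in the inner mitochondrial membrane. Complex I accepts electrons from NADH and complex II accepts them from succinate; both pass them through coenzyme Q to complex III, and cytochrome c carries them on to complex IV, where oxygen is reduced. Complexes I, III and IV pump protons, and complex V, the ATP synthase, makes ATP as the protons flow back. Most subunits are encoded in the nucleus, and a hepatocyte holds very many mitochondria to supply the ATP for urea, glucose and protein synthesis. The nuclear genes are known to share promoter elements, among them sites for NRF1 and for the ETS factor GABP (also called NRF2), YY1 and the oestrogen-related receptors.

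Of the 82 genes, 72 had a promoter in the RefSeq set of the assembly GRCr8, taken as the 250 bases before to the 50 bases after the gene's start. The letters CGCATGCG, the core of the NRF1 site and its own reverse complement, occurred in 9 of the 72 (12.5%), against 2.11% of the 21851 promoters of protein-coding genes. Those 9 belonged to complex I (3 genes), complex III (1 gene) and complex V (5 genes), and most of the 72 promoters did not hold these letters. Stretches of 6 of the 9 are shown, as examples of a feature that the selection by symbol did not use. The capitals mark the NRF1 letters and each stretch is written 5′ to 3′ on the gene's own strand, at chr7:135678240-135678299 (minus) for Atp5mc2, chr14:1464759-1464818 (plus) for Atp5me, chr11:44657508-44657567 (minus) for Atp5po, chr8:118468159-118468218 (plus) for Uqcrc1, chr9:1637492-1637551 (plus) for Ndufa11 and chr3:147961572-147961631 (plus) for Ndufaf5:
Atp5mc2: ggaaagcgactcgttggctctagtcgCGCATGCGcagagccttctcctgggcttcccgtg
Atp5me: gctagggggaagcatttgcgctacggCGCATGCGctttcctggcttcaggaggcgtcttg
Atp5po: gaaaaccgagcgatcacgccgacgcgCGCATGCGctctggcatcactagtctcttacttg
Uqcrc1: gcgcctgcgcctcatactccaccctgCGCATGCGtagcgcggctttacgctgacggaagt
Ndufa11: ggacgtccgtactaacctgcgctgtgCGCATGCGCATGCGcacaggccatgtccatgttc
Ndufaf5: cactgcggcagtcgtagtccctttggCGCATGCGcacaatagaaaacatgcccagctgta

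In Ndufa11 a pair of overlapping matches formed 1 longer run. In Atp5mc2 the match began 55 bases before the gene's start, in Atp5po 58 and in Uqcrc1 38, whereas in Ndufaf5 it began 14 bases before it. The other motifs were read on both strands. The ETS letters CCGGAAG occurred in 22 of the 72 promoters (30.6%), against 2346 of the 21851 protein-coding promoters. The YY1 letters AAGATGGC occurred in 14 (19.4%, against 3.67%), and the letters AAGGTCA of the oestrogen-related receptors in 9 (12.5%, against 3.78%). The ETS letters end in the bases that open the YY1 and receptor letters, so matches of these can share bases. At least 1 of the 4 motifs was found in 38 of the 72 promoters (52.8%, against 18.6%), while the median GC content was 56.2% in the 72 and 55.0% in all. The 13333 protein-coding promoters of genes named on the array are a nearer background. Their shares were 2.54% (NRF1), 13.0% (ETS), 4.07% (YY1), 3.45% (oestrogen-related receptors) and 20.7% (at least 1), with a median GC content of 58.0%. A match of letters is a description of the window and not a binding site.

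Values below are log2 of the processed spot intensity minus the 75th percentile of the same array, so 0 is the brightness that 75% of probes stay under. The 75th percentile lay at 616.1 to 638.2 intensity units on the TBBC arrays and at 465.2 to 598.1 on the vehicle arrays, and 36919 to 39386 probes per array were well above background. Vehicle replicate 2 had the lowest percentile, and its spike-in signals varied by 9.113% (coefficient of variation), against 3.012% to 4.111% on the other 5 arrays. All 8 hepatocyte markers were measured; their differences were all negative under this scaling, 1 of them fell (Ahsg, log2 difference -0.83, adjusted p = 0.0292, limma), and their summed level was 5371 to 5482 times the 75th percentile in TBBC livers and 6194 to 7126 times in vehicle livers. Of 4 biliary markers 1 rose (Epcam, 1.83, adjusted p = 0.0147), while Krt19 (0.44), Spp1 (0.25) and Krt7 (-0.33) overlapped between the groups. The biliary sums were 2.68 to 4.09 in TBBC livers and 1.12 to 1.23 in vehicle livers, and without Epcam they were 0.329 to 0.455 in TBBC livers and 0.260 to 0.538 in vehicle livers, which overlapped. The part of these shifts in the results was not tested, and in whole liver fewer cells of a type and less RNA per cell cannot be told apart. Each treatment group lay on a slide and a scan of its own, so slide and treatment cannot be told apart.

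None of the 81 genes passed the threshold between TBBC and vehicle livers (adjusted p under 0.05, limma over 29326 features), whereas 3.08% of all features did, 1.68% higher and 1.40% lower. At an unadjusted p under 0.05 there were 4 genes, Cox6c-ps1, Uqcrq, Cox8b and Atp5mc1 (4.94%, against 23.0% of all features). The differences were small: 74 of 81 (91.4%) were under 0.3 in size on the log2 scale, against 62.8% of all features. The 95% interval of the difference lay within 1.5-fold either way for 71 of 81 genes (87.7%), against 43.8% of features. The median moderated standard error per gene was 0.126 in these genes and 0.158 in all features. All 81 genes were above background on all 6 arrays. In the 10788 named features of which this held, the median standard error was 0.148, and 49.1% of intervals lay within 1.5-fold. Differences were positive in 26 genes and negative in 55, against 42.4% positive and 57.6% negative among all features, and the median was -0.048 (all features -0.062); with scaling to the spike-in controls or to the array median, the median turned positive, at 0.17 and 0.048, as did that of all features, at 0.16 and 0.034. Of all features, 31.1% had TBBC and vehicle values that did not overlap. Of the 81 genes this held for 5 that were higher (6.17%, against 12.3% of features) and for 8 that were lower (9.88%, against 18.8%).

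**Figure D1:**
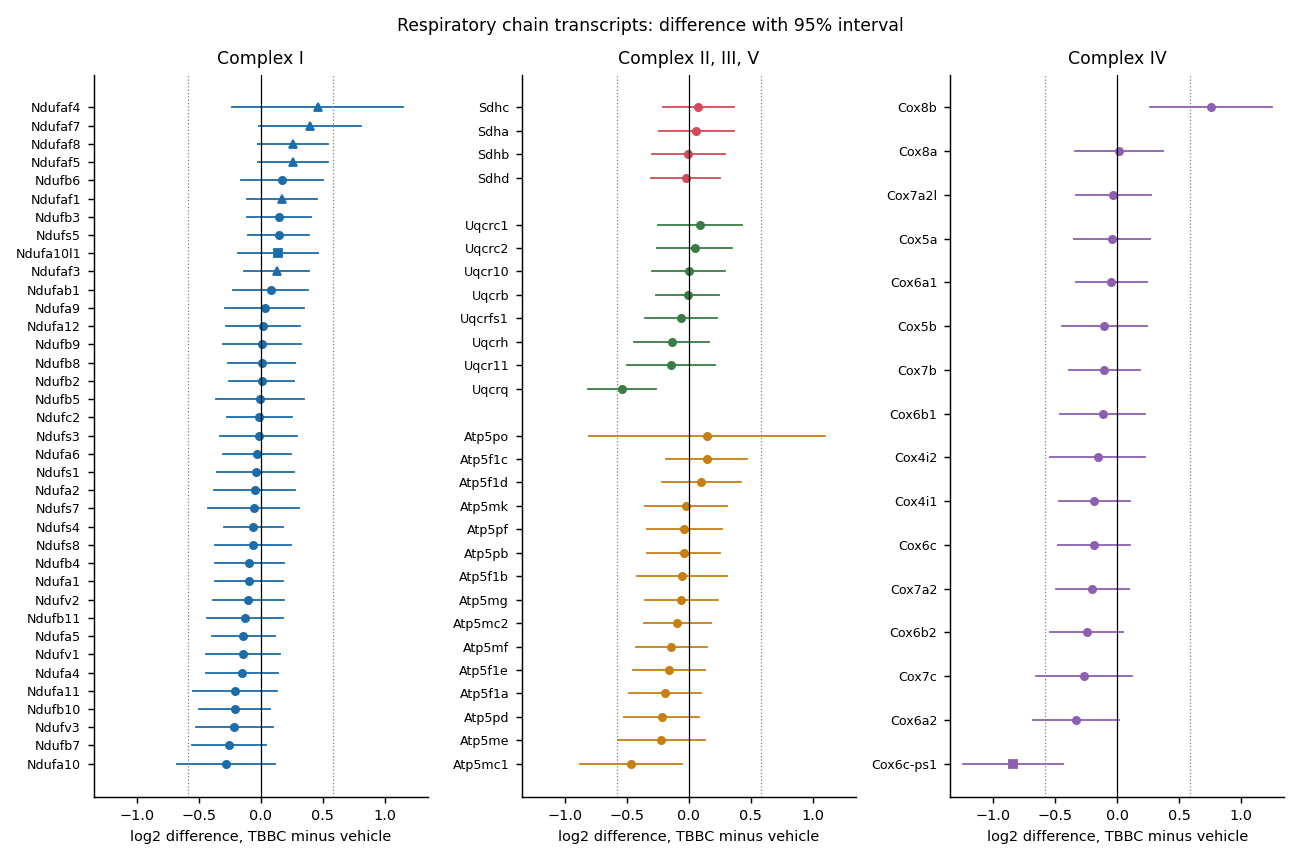
Log2 difference, TBBC minus vehicle, of 80 of the tested genes by complex, each point with its 95% interval; triangles are the Ndufaf assembly factors, squares are the gene copies Ndufa10l1 and Cox6c-ps1, and dotted lines mark 1.5-fold either way. 70 of the 80 intervals stay within those lines, and Cox6c-ps1 (-0.84) and Cox8b (0.76) lie farthest from 0.

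In complex I, 35 of 38 intervals stayed within 1.5-fold and no gene had an unadjusted p under 0.05. Ndufv1, which binds NADH and its flavin, was at 5.91, 6.11 and 5.97 in TBBC livers, against 6.30, 6.11 and 6.01 in vehicle livers. Ndufs1, which carries iron-sulfur clusters next to it, was at 4.03, 4.20 and 4.02 in TBBC livers, against 4.25, 3.94 and 4.19 in vehicle livers. The groups overlapped in both genes, and the log2 differences were -0.14 ± 0.13 for Ndufv1 and -0.043 ± 0.13 for Ndufs1 (SE, n = 3 each; adjusted p = 0.52 and 0.865, limma).

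Ndufs7, which holds the last iron-sulfur cluster before the quinone, was at 6.17, 6.42 and 6.29 in TBBC livers, against 6.40, 6.56 and 6.09 in vehicle livers. The ranges overlapped, and the difference was -0.059 ± 0.15 (adjusted p = 0.844, limma). Across the 7 core subunits, the conserved electron-carrying part of the enzyme, every interval lay within 1.5-fold and the median difference was -0.059. The other 24 genes counted by symbol as complex I subunits ran from -0.28 (Ndufa10) to 0.17 (Ndufb6). Apart from Ndufa4 they are accessory subunits, which surround and stabilise that core. In the accessory subunits Ndufa5 and Ndufs4 every TBBC value lay below every vehicle value, and in Ndufs5 every TBBC value lay above, by differences of -0.14, -0.061 and 0.14, none past the threshold. Ndufa4, once counted in complex I and now placed with complex IV, differed by -0.16 ± 0.12 (adjusted p = 0.47, limma).

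The Ndufaf assembly factors of complex I were all on the positive side, 6 of 6, with a median of 0.26, and none passed the threshold. Assembly factors with other names were mixed when complexes I to V were pooled. Of 34 such genes, 21 were positive and 13 negative, with a median of 0.025. Those of complex I lay mostly on the positive side too. They were Acad9 (0.57), Timmdc1 (0.26), Nubpl (0.15), Tmem126a (0.12), Tmem126b (0.024), Ecsit (0.010) and Tmem186 (-0.012), none past the threshold. Ndufaf7, an arginine methyltransferase of complex I assembly, was at -0.50, -0.19 and -0.37 in TBBC livers, against -0.68, -1.06 and -0.52 in vehicle livers. The lowest TBBC value was close to the highest vehicle value, without overlap. The difference was 0.40 ± 0.17 (1.32-fold, adjusted p = 0.231, limma), and its other probe gave 0.40 ± 0.14 (adjusted p = 0.176 with every probe tested on its own).

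Ndufaf5 hydroxylates an arginine of Ndufs7; it was at 1.73, 1.92 and 1.74 in TBBC livers, against 1.67, 1.48 and 1.46 in vehicle livers. Its partner Ndufaf8 was at 4.32, 4.54 and 4.35 in TBBC livers, against 4.14, 4.24 and 4.05 in vehicle livers. Neither gene's groups overlapped. Both differed by 0.26 ± 0.12 (1.2-fold), with adjusted p of 0.25 for Ndufaf5 and 0.244 for Ndufaf8 (limma). Ndufaf4, which works with Ndufaf3 on the quinone-binding module, had the highest difference, 0.46 ± 0.29, but its 4 probes ran from -0.17 to 0.46 and the groups overlapped, with vehicle replicate 2 low at 0.96. Ndufaf1 and Ndufaf3 differed by 0.17 and 0.13. The median of the 6 Ndufaf genes stayed positive under every scaling tried and without each array in turn, between 0.19 and 0.48. The other scalings also raised the median of all features, from -0.062 to -0.031 with quantile normalization and up to 0.16 with spike-in scaling. They were thus unlikely to turn a positive median.

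In complex II, which is also the succinate dehydrogenase of the tricarboxylic acid cycle, the 4 genes differed by -0.027 to 0.076. Sdha, the flavoprotein that oxidises succinate, was at 6.48, 6.35 and 6.18 in TBBC livers, against 6.39, 6.15 and 6.29 in vehicle livers. Sdhb, the iron-sulfur subunit, was at 5.02, 5.07 and 5.01 in TBBC livers, against 5.21, 5.03 and 4.86 in vehicle livers. The groups overlapped in both. The differences were 0.060 ± 0.13 for Sdha and -0.0040 ± 0.12 for Sdhb (adjusted p = 0.803 and 0.987, limma). The membrane anchors Sdhc and Sdhd differed by 0.076 and -0.027, and all 4 intervals lay within 1.5-fold.

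In complex III, 1 of 8 genes stood apart. Uqcrq, a small subunit near the quinone site, was at 0.34, 0.22 and 0.49 in TBBC livers, against 0.88, 0.87 and 0.93 in vehicle livers. Every TBBC value lay below every vehicle value, and the vehicle values lay close together. The difference was -0.54 ± 0.11 (0.687-fold, 95% interval 0.569 to 0.829), with adjusted p = 0.061 (limma), just outside the threshold. The adjusted p was 0.0207 with normexp background correction, 0.0427 with a robust trended prior and 0.0489 with array weights, and ranged from 0.0554 to 0.406 under the other settings. Its other probe was not well above background on any array, so 1 probe carries the value. That probe was also far dimmer than those of the other complex III genes. Its mean in vehicle livers was 0.89, against 4.54 (Uqcrc2) to 7.78 (Uqcr10) in the others. How well it reports the Uqcrq transcript was not tested.

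The other complex III genes differed by -0.15 to 0.092. Uqcrfs1, the Rieske iron-sulfur protein, was at 5.20, 5.41 and 5.19 in TBBC livers, against 5.45, 5.21 and 5.33 in vehicle livers (difference -0.061 ± 0.12, adjusted p = 0.788, limma). Uqcrc1, a core protein without a redox centre, was at 4.64, 4.90 and 4.71 in TBBC livers, against 4.87, 4.61 and 4.49 in vehicle livers (0.092 ± 0.14, adjusted p = 0.722). Both overlapped between the groups. Uqcrh, a hinge protein at the cytochrome c side, differed by -0.14 and Uqcr11 by -0.15, with adjusted p of 0.534 and 0.579 (limma).

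Complex IV had a median of -0.14, with 14 of 16 genes negative, and the median turned to 0.084 with spike-in scaling; none of its genes passed the threshold. Cox6c-ps1, annotated as a pseudogene of Cox6c, was at 0.55, 0.59 and 0.35 in TBBC livers, against 1.63, 1.06 and 1.33 in vehicle livers. The groups did not overlap, and the 3 TBBC values lay closer together than the vehicle values. The difference was -0.84 ± 0.17 (0.558-fold, 95% interval 0.422 to 0.737), with adjusted p = 0.0539 (limma). The adjusted p was 0.0476 when only probes above background on all 6 arrays were tested, 0.0162 with normexp, 0.0354 with the robust trended prior and 0.0318 with array weights, and 0.0519 to 0.229 under the others. Its second probe was never above background. Cox6c itself, the gene it resembles, was at 6.68, 6.80 and 6.73 in TBBC livers, against 7.10, 6.87 and 6.80 in vehicle livers, which did not overlap by a narrow margin (-0.19 ± 0.12, adjusted p = 0.382). Probes of such near-identical copies may share signal, which was not tested.

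Several complex IV subunits exist in isoforms for different tissues. Cox4i1, the common form of the subunit that regulates the enzyme through ATP, was at 7.65, 7.79 and 7.71 in TBBC livers, against 8.01, 7.96 and 7.73 in vehicle livers. Cox4i2, the lung form, was at 1.95, 1.88 and 1.72 in TBBC livers, against 2.26, 1.73 and 2.02 in vehicle livers. Both overlapped, with differences of -0.18 ± 0.12 and -0.16 ± 0.16 (adjusted p = 0.391 and 0.58, limma), and the second Cox4i2 probe gave -0.49 (adjusted p = 0.187 with every probe on its own).

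Cox6a1, the liver form, differed by -0.048 ± 0.12 (8.36, 8.47 and 8.28 in TBBC livers, against 8.54, 8.43 and 8.28 in vehicle livers). Cox6a2, the heart and muscle form, was at -1.28, -1.24 and -1.19 in TBBC livers, against -0.80, -0.73 and -1.18 in vehicle livers. The Cox6a2 groups were separated by a narrow margin, since vehicle replicate 3 nearly met the TBBC values. Its difference was -0.33 ± 0.15 (adjusted p = 0.234, limma), and its 3 probes ran from -0.33 to 0.055. Cox6b2, the testis form, differed by -0.25 ± 0.12 without overlap, and the common Cox6b1 by -0.12 ± 0.14 with overlap (adjusted p = 0.276 and 0.648). The second Cox6b2 probe was far dimmer, at -4.72 to -4.22 in TBBC livers, against 4.08 to 4.24 for the probe used. It gave -0.43 with overlap (adjusted p = 0.335, limma with every probe on its own), so the probes of Cox6b2 disagree on its level. Cox7a2 (-0.20), Cox7a2l (-0.030), a factor of supercomplex assembly, and Cox7b (-0.11) were within 1.5-fold, as was Cox5a (-0.044), which belongs to the matrix side of the enzyme. Cox7c differed by -0.26 with an interval reaching beyond 1.5-fold.

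Cox8b, the muscle form of the smallest subunit, had the largest positive difference of the 81 genes under the main scaling. It was at -2.98, -3.10 and -3.50 in TBBC livers, against -3.86, -3.71 and -4.29 in vehicle livers. The groups did not overlap, and all 6 values were far below the 75th percentile though above background. The difference was 0.76 ± 0.21 (1.69-fold, adjusted p = 0.104, limma), while its second probe gave 0.19 (adjusted p = 0.647 with every probe on its own). With spike-in scaling the adjusted p was 0.0364, and with normexp the difference was 0.18 (adjusted p = 0.285). The common form Cox8a differed by 0.013 ± 0.15 (adjusted p = 0.965). Of 11 muscle markers 6 were tested, all with negative differences under this scaling (-0.71 to -0.00033) and none past the threshold, and their summed level was 5.14 to 5.71 times the 75th percentile in TBBC livers and 5.71 to 6.83 times in vehicle livers.

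**Figure D2:**
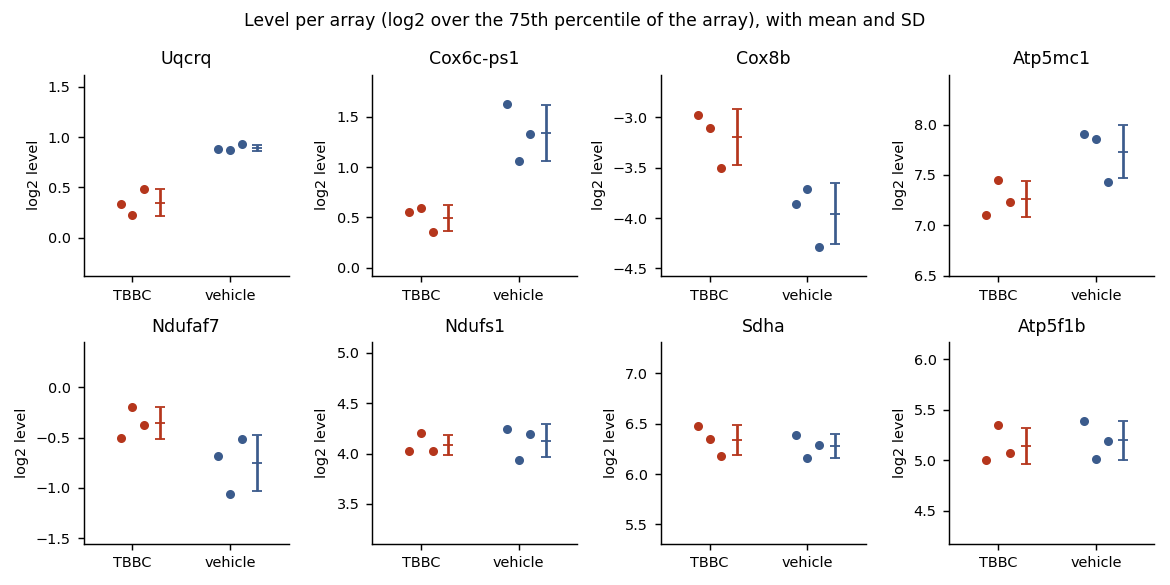
Log2 level relative to the array's 75th percentile of 8 genes on every array, TBBC left and vehicle right in each panel, with points for animals and the mean with SD. Uqcrq and Cox6c-ps1 lie lower and Cox8b and Ndufaf7 lie higher in TBBC livers without overlap, while Ndufs1, Sdha, Atp5f1b and Atp5mc1 overlap.

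In complex V, 13 of 15 intervals lay within 1.5-fold. Atp5mc1 encodes the c subunit whose ring turns as protons pass; it was at 7.10, 7.45 and 7.23 in TBBC livers, against 7.90, 7.86 and 7.43 in vehicle livers. The groups overlapped, because TBBC replicate 2 lay just above vehicle replicate 3. The difference was -0.47 ± 0.17 (0.724-fold, adjusted p = 0.181, limma). Its other probe gave -0.53, without overlap between the groups (adjusted p = 0.124, limma with every probe on its own). Atp5mc2, which encodes the same mature protein, differed by -0.094 ± 0.11 (adjusted p = 0.638), with 3 probes from -0.35 to -0.094; Atp5mc3 was not analysed here.

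Atp5f1a, the alpha subunit of the catalytic head, was at 8.22, 8.31 and 8.04 in TBBC livers, against 8.50, 8.32 and 8.33 in vehicle livers. Atp5f1b, the catalytic beta subunit, was at 5.01, 5.35 and 5.07 in TBBC livers, against 5.39, 5.01 and 5.20 in vehicle livers. The alpha values were separated by a narrow margin, and the beta values overlapped. The differences were -0.20 ± 0.12 and -0.057 ± 0.15 (adjusted p = 0.37 and 0.846, limma). The remaining head subunits Atp5f1c, Atp5f1d and Atp5f1e differed by 0.14, 0.10 and -0.16. In the stalk, Atp5pb differed by -0.042 and Atp5pd by -0.22, while Atp5po, the oligomycin-sensitivity protein, had the widest spread of the 81 genes, from 5.74 to 7.02 in TBBC livers and from 5.66 to 6.68 in vehicle livers (0.15 ± 0.40).

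Most of the genes ranked the animals of a group alike. Among TBBC livers, 66 of 81 genes were highest in replicate 2 (81.5%, against 38.5% of all features), and among vehicle livers 65 were highest in replicate 1 (80.2%, against 29.5%). Both held in 57 genes (70.4%, against 13.9%). By complex this was 28 of 38 genes in complex I, 3 of 4 in complex II, 5 of 8 in complex III, 8 of 16 in complex IV and 13 of 15 in complex V. In other mitochondrial lists both held in 28 of 67 mitochondrial ribosomal proteins (41.8%), 8 of 18 genes of the tricarboxylic acid cycle list (44.4%) and 4 of 11 electron donors (36.4%), and in 1 of 20 regulators of mitochondrial gene expression (5.0%). The median deviation of the 81 genes from their own mean over the 6 arrays was -0.069, 0.063 and -0.078 in TBBC replicates 1 to 3, against 0.16, 0.00029 and -0.063 in vehicle replicates 1 to 3. The animals of a group thus spread by more than the median difference between the groups. Genes measured on the same arrays share their scaling and labelling, whose part was not tested. The data without vehicle replicate 1 gave a median of 0.012 over the 81 genes, and without vehicle replicate 3 a median of -0.10, with 12 genes at an unadjusted p under 0.05 and none past the threshold.

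**Figure D3:**
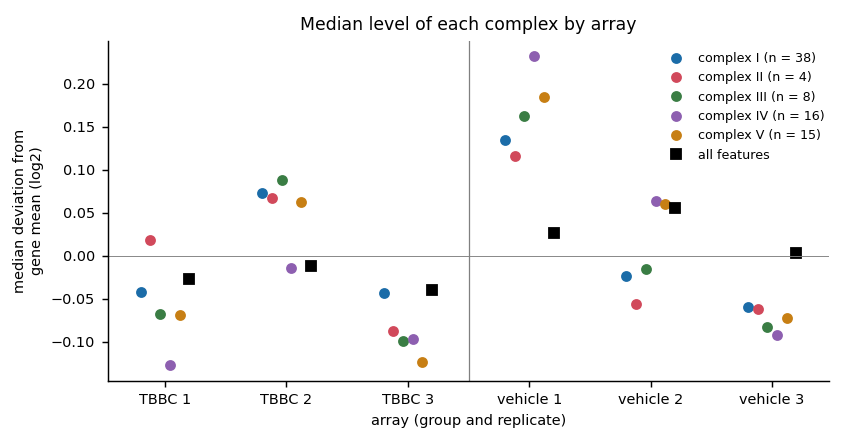
Median over the genes of each complex of the deviation from the gene's own mean over 6 arrays (log2), by array, TBBC left and vehicle right; black squares are all features. Within each group all 5 complexes were highest on the same array, TBBC replicate 2 and vehicle replicate 1.

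With every probe tested on its own, none of the 142 retained probes of these genes passed the threshold, against 3.22% of 37222 probes. Probes of 1 gene mostly gave close values. Of 42 genes with 2 or more retained probes, 33 had log2 differences within 0.2 of one another, the median range was 0.101, and 11 had probes of both signs. The widest range, 0.627, was that of Ndufaf4.

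The genes around the chain were examined from lists of other mitochondrial genes. Of 40 assembly factors of complexes I to V none passed, with 27 positive and 13 negative; without the Ndufaf genes the median was 0.025 over 34. Acad9, which works in complex I assembly, was at 3.86, 3.87 and 3.52 in TBBC livers, against 3.29, 3.14 and 3.13 in vehicle livers, without overlap (0.57 ± 0.14, 1.48-fold, adjusted p = 0.0833, limma). Atpaf2, a chaperone of the ATP synthase head, differed by -0.30 (adjusted p = 0.177). Of 67 mitochondrial ribosomal proteins, which translate the subunits encoded in the organelle, none passed and 61 intervals lay within 1.5-fold (91.0%); the lowest p values were those of Mrpl17 (0.33, adjusted p = 0.138) and Mrps18b (0.69, adjusted p = 0.148).

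Among the enzymes that feed electrons into the chain, 1 of 11 fell and none rose, against 1.40% and 1.68% of all features. Differences in this list reached up to 1.08, not past the threshold, and 2 genes had an unadjusted p under 0.05 (18.2%, against 23.0%). The groups did not overlap in 1 gene that was higher (9.09%, against 12.3%) and 1 that was lower (9.09%, against 18.8%). Gpd2, the mitochondrial glycerol-3-phosphate dehydrogenase that hands electrons to coenzyme Q, was at -0.10, -0.77 and -0.20 in TBBC livers, against 0.96, 1.37 and 1.34 in vehicle livers. The groups lay far apart. It fell by 1.58 ± 0.21 on the log2 scale (0.335-fold, adjusted p = 0.0237, limma); the adjusted p was 0.0583 to 0.0761 without any 1 of TBBC replicates 2 and 3 and vehicle replicates 1 to 3, 0.0434 without TBBC replicate 1, and 0.0595 with no filter on dim probes. Cycs, cytochrome c itself, was at 5.09, 5.50 and 5.49 in TBBC livers, against 5.75, 5.38 and 5.46 in vehicle livers (-0.17 ± 0.17, adjusted p = 0.56).

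Of 12 genes of coenzyme Q synthesis and handling 1 fell and none rose, against 1.40% and 1.68% of all features. The groups did not overlap in 2 that were higher (16.7%, against 12.3% of features) and 1 that was lower (8.33%, against 18.8%). Coq4 had the highest difference, not past the threshold (0.38, adjusted p = 0.144, limma). Coq10a, a coenzyme Q-binding protein, was at -0.88, -0.86 and -0.74 in TBBC livers, against 0.08, 0.11 and 0.12 in vehicle livers. Within each group the values were close, and the groups were well separated. It fell by 0.93 ± 0.10 (0.524-fold, adjusted p = 0.0129, limma); the adjusted p was 0.0652 without TBBC replicate 2, 0.063 without vehicle replicate 1 and 0.0922 with spike-in scaling. The median of the 12 was 0.046.

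Of 18 genes of the tricarboxylic acid cycle and pyruvate metabolism 1 fell and none rose, against 1.40% and 1.68% of all features, and 8 had an unadjusted p under 0.05 (44.4%, against 23.0%). Differences were positive in 9 and negative in 9, and the groups did not overlap in 7 that were higher (38.9%, against 12.3% of features) and 4 that were lower (22.2%, against 18.8%). The highest difference, not past the threshold, was that of Dlat (0.53, adjusted p = 0.174, limma), a subunit of pyruvate dehydrogenase. Pc, pyruvate carboxylase, which makes oxaloacetate, was at 7.77, 7.56 and 7.73 in TBBC livers, against 8.21, 8.35 and 8.36 in vehicle livers, without overlap. It fell by 0.62 ± 0.11 (0.649-fold, adjusted p = 0.0443, limma). This call was lost without any 1 array (0.0885 to 0.133), and with quantile normalization (0.0529), median centring (0.0593), spike-in scaling (0.282) or no filter (0.121).

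The 10 measured carriers, uncoupling proteins and porins with the ATP synthase inhibitor were all positive under this scaling (median 0.21), and none passed. Atp5if1, the inhibitor that binds the ATP synthase when the proton gradient fails, was at 4.27, 4.23 and 4.23 in TBBC livers, against 3.82, 3.78 and 4.00 in vehicle livers. The groups did not overlap. The difference was 0.38 ± 0.11 (1.3-fold, adjusted p = 0.121, limma; 0.0401 with normexp), and the porin Vdac3 differed by 0.24 (adjusted p = 0.223). Of 20 regulators of mitochondrial gene expression none passed; Pprc1, a coactivator related to PGC-1, differed by -0.50 (adjusted p = 0.149) and Twnk, the mitochondrial DNA helicase, by -0.31 (adjusted p = 0.231).

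**Figure D4:**
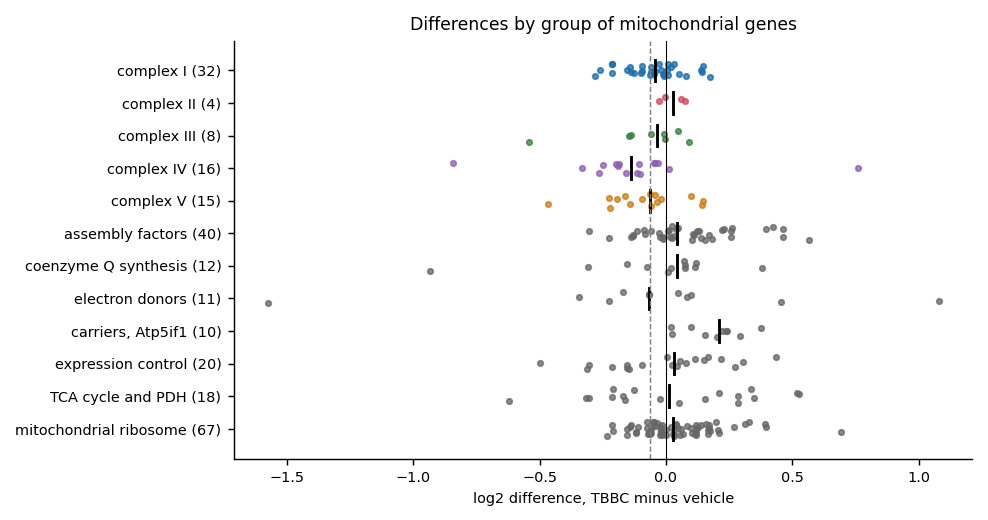
Log2 difference, TBBC minus vehicle, of every tested gene by group; the black tick is the group's median and the dashed line the median of all features (-0.062). The medians of the 5 complexes and the mitochondrial ribosomal proteins lie between -0.14 (complex IV) and 0.029 (the ribosomal proteins). Single genes such as Cox6c-ps1 (-0.84), Cox8b (0.76) and Mrps18b (0.69) lie farther out, and Gpd2 (-1.58) is the lowest point. The Ndufaf genes are drawn with the assembly factors and not with complex I.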

How the data were processed

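Per the file headers, the authors scanned 1-colour Cy3 arrays with Agilent Feature Extraction 10.7.1.1 (10.7 per the submitters' processing notes), which gives a background-corrected intensity per spot. The deposited value table holds the same intensity divided by the array's 75th percentile (column medians 0.0977, 0.0972 and 0.0974 for TBBC replicates 1 to 3, against 0.1013, 0.1077 and 0.1033 for vehicle replicates 1 to 3); it was an alternative.

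Control spots and 25 probes with outlier flags were left out of 61537 probes. A probe was kept if every array of TBBC or every array of vehicle had it well above background (37222 probes). Names came from RefSeq accessions in a GRCr8 gene table (28206 probes, 45.8%). The headers give rn4 as the design's build, so no array coordinates are used. Each gene kept its brightest probe on average, which gave 29326 features, 11235 of them named. TBBC was tested against vehicle in limma 3.58.1 (R 4.3.3), two-sided, Benjamini-Hochberg over all features; ± is the moderated standard error. Each array is 1 animal, so p-values measure the spread between animals. The scripts were tested on simulated data.

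The members and lists were chosen with earlier results of these data known. Named genes were fixed subunits of each complex, the 3 members with the lowest p in each, isoform sets, and up to 4 genes of each other list. For 1 of these genes, results are not reported here. Genes named outside that rule were chosen after their values were seen. Alternatives were other scalings (quantile, median, spike-in), normexp with an offset of 50 on median spot signals (the design had assumed mean signals), other filters, probe rules, the deposited table, trended or weighted fits, a replicate block, and leaving out each array.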

Additional observations from a re-analysis of the deposited data

How the results depend on the processing

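No gene of complexes I to V passed the threshold under quantile normalization, median centring, no filter, the mean of a gene's probes, every probe alone, the deposited table, the replicate block, or without any 1 array; at an unadjusted p under 0.05 those settings had 3 to 12 genes. The count was 2 with normexp, eBayes with trend and robust, or array weights (Uqcrq in complex III and Cox6c-ps1 in complex IV, 1 each), and 1 in complex IV with spike-in scaling (Cox8b) or with the filter asking for signal above background on each of the 6 arrays (Cox6c-ps1). The replicate numbers did not pair the animals (correlations of same-numbered deviations 0.0035, -0.022 and 0.14); under the replicate block 211 features passed, against 902, and Coq10a, Gpd2 and Pc did not (0 in each of their lists).

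Spike-in scaling moved the median of all features to 0.16, and those of all members to 0.17, complex I to 0.21, II to 0.25, III to 0.19, IV to 0.084 and V to 0.16, assembly factors to 0.27, coenzyme Q genes to 0.27, electron donors to 0.15, carriers to 0.43, regulators to 0.25, tricarboxylic acid cycle genes to 0.23 and mitochondrial ribosomal proteins to 0.25; coenzyme Q and tricarboxylic acid cycle genes then had 0 calls. Median centring gave 0.081 for complex I, 0.12 for complex II, 0.14 for assembly factors and for coenzyme Q genes, 0.030 for electron donors, 0.31 for carriers and 0.13 for mitochondrial ribosomal proteins. The tricarboxylic acid cycle list had 0 calls with quantile normalization, median centring or no filter, and 2 with normexp or every probe alone. Electron donors had 0 with no filter and 3 with every probe alone, coenzyme Q genes 2 with every probe alone, and carriers 1 with normexp. Without each array in turn, calls were 0 to 0 in the tricarboxylic acid cycle list, 0 to 1 in coenzyme Q genes and 0 to 1 in electron donors, and the median of assembly factors was 0.050 to 0.094.

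Differences of genes that did not pass changed sign. With spike-in scaling these were Ndufs1 (0.18), Ndufs7 (0.16), Ndufv1 (0.078), Sdhb (0.22), Sdhd (0.19), Uqcrfs1 (0.16), Cox4i1 (0.036), Cox5a (0.18), Cox6a1 (0.17), Atp5f1a (0.025), Atp5f1b (0.16), Atp5pb (0.18), Uqcrh (0.081), Uqcr11 (0.075), Atp5pd (0.00077), Cox4i2 (0.063), Cox6b1 (0.10), Cox7a2 (0.021), Cox7a2l (0.19), Cox7b (0.11), Ndufa4 (0.065), Atp5mc2 (0.13). With median centring they were Ndufs1 (0.053), Ndufs7 (0.037), Sdhb (0.092), Sdhd (0.069), Uqcrfs1 (0.035), Cox5a (0.052), Cox6a1 (0.048), Atp5f1b (0.039), Atp5pb (0.054), Cox7a2l (0.066), Atp5mc2 (0.0024). With normexp they were Sdhd (0.056), Uqcrfs1 (0.048), Uqcrc1 (-0.076), Atp5pb (0.078), Cox7a2l (0.014), and with array weights Cox8a (-0.079). Leaving out 1 array turned some signs, with ranges for Ndufs1 (-0.14 to 0.018), Ndufs7 (-0.19 to 0.045), Sdha (-0.011 to 0.14), Sdhb (-0.090 to 0.084), Sdhd (-0.078 to 0.042), Cox5a (-0.12 to 0.034), Cox6a1 (-0.12 to 0.012), Atp5f1b (-0.16 to 0.040), Atp5pb (-0.12 to 0.034), Cox7a2l (-0.10 to 0.040), Cox8a (-0.086 to 0.14). The cause was not tested. With 3 arrays per group, and probes of Cox8b and Cox8c dim, small differences could not be resolved.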

Other observations

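The 2 probes of Cox8c, the testis form of the smallest complex IV subunit, stayed at -7.59 to -6.88 on the TBBC arrays, against -7.26 to -6.83 on the vehicle arrays, except for 1 probe at -3.17 on vehicle replicate 3, the only array on which it was well above background.

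The 4 probes of Ndufaf4 gave log2 differences of -0.17, 0.053, 0.29 and 0.46, TBBC minus vehicle. The probe with 0.46 was the brightest, at 1.94, 2.22 and 2.03 in TBBC livers, against 1.72, 0.96 and 2.12 in vehicle livers.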
